A study of Mus musculus with 8 samples.

Results

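Cells keep reactive oxygen species in check with enzymes that pass electrons from NADPH to peroxides, and 35 genes of the antioxidant, thioredoxin and glutathione systems were followed here in blood stem and progenitor cells without the ubiquitin ligase TRAF6. The 35 genes were taken by name from a list of peroxiredoxin, thioredoxin, glutathione, superoxide dismutase and NRF2-linked genes, by a rule that uses no measured value, although the list was drawn up with earlier results of these data known. All 35 were found among the 24112 genes listed for each library. In poly(A) RNA sequencing of Lineage-Sca1+Kit+ (LSK) cells, the marrow fraction enriched for hematopoietic stem and progenitor cells, 4 KO libraries (Traf6 knockout, from mice reconstituted with Traf6-/-;Vav-Cre+ bone marrow) were compared with 4 WT libraries (wild type, from mice reconstituted with Vav-Cre+ marrow). The labelled strain is C57BL/6, after transplantation, and both groups carry the Cre recombinase. Vav-Cre, driven by a blood cell promoter, was carried by the transplanted marrow, and whether host LSK cells remained in the sort was not tested. The labels give neither an age nor the number of mice behind a library, and nothing states that the libraries of a group are separate animals. A p-value here therefore reflects how much these libraries scatter, and that scatter may be technical.

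Superoxide is turned into hydrogen peroxide by superoxide dismutases, and the peroxide is removed by catalase, by glutathione peroxidases and by peroxiredoxins. Glutathione peroxidases are recharged by glutathione and glutathione reductase, and peroxiredoxins by thioredoxin and thioredoxin reductase. The transcription factor NRF2, encoded by Nfe2l2, switches on many of these genes through antioxidant response elements when its inhibitor KEAP1 is oxidized. Blood stem cells are known for keeping low levels of reactive oxygen species, whose rise is linked to loss of quiescence.

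Values are RPKM (reads per kilobase of gene and per mega of reads), which are scaled by length and can be compared between genes. About 19.1 to 30.7 M (mega) reads per library lay in genes, as estimated from the steps between low values, and a value of 0 is written as listed at 0 because even abundant genes are at 0 in some libraries. Of 3943 genes with a mean above 20 RPKM, 175 were at 0 in KO3, 61 in KO4, 47 in WT2 and 6 to 20 in each remaining library. KO3, KO4 and WT2 also stood apart in correlation with the median of the other libraries over genes (Pearson's r of 0.759, 0.844 and 0.849, against 0.919 to 0.950). Lane 5 of the sequencer held KO3 and KO4 and lane 4 all else. Values of the lane 4 libraries, which take KO from KO1 and KO2 only, are given beside the pooled ones for most of the genes. Traf6 itself was at 0.613, 0.818, 0 and 0.00721 RPKM in KO1 to KO4 and at 14.9, 3.52, 9.40 and 7.10 in WT1 to WT4. Of the gate's own markers, Kit was at 74.8 ± 27.3 RPKM in KO and 78.4 ± 4.24 in WT and Ly6a (Sca1) at 8.84 ± 2.16 in KO and 10.1 ± 2.07 in WT (SD, n = 4). Of 10 mature lymphoid markers, 7 averaged under 1 RPKM, whereas Nkg7, a gene of cytotoxic lymphocytes, was at 461, 425, 376 and 723 RPKM in KO and 408, 430.0, 398 and 455 in WT, and Cd79b, part of the B cell receptor, at 14.5, 16.1, 14.9 and 6.65 RPKM in KO and 5.51, 11.4, 4.78 and 16.3 in WT.

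None of the 34 genes that could be tested passed the test, and the genes whose groups stood most clearly apart were Nfe2l2, lower in each KO library, and Gpx1, higher in each. Differences were tested with limma on log2(RPKM + 1) over the 11276 genes that reached 1 RPKM in 4 or more libraries. Of the 35 genes 34 passed this filter, and Gpx7, which reached 1 RPKM in only 3 libraries, did not. At a Benjamini-Hochberg adjusted p under 0.05, 0 of the 34 passed, against 0 of 11276 genes (0%). Traf6, the deleted gene, did not pass either (log2 difference -2.75 ± 0.53, limma adjusted p = 0.341). A gene that did not pass is therefore not shown to be unchanged. At an unadjusted p under 0.05, 2 members were higher in KO (Gpx1 and Gstp1), where 2.77% of all genes were, and 3 were lower (Prdx4, Txnip and Nfe2l2), where 4.74% of all genes were. Together these are 5 of 34, next to 7.51% of all genes. All 4 KO libraries lay above all 4 WT libraries in 1 member, Gpx1 (2.05% of all genes), and below them in 1 member, Nfe2l2 (3.88% of all genes). That is 2 of 34, or 5.88%, next to 5.92% of all genes, so the share of separated genes among the members was that of the background. The median log2 difference of the members, KO minus WT, was -0.08, with 16 above 0 and 18 below (52.9%), where 61% of all genes lay below 0. The median over all genes tested was -0.14, and every difference below is to be read against that shift. Median centring moved it to -0.03 and quantile normalization to -0.0008.

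**Figure D1:**
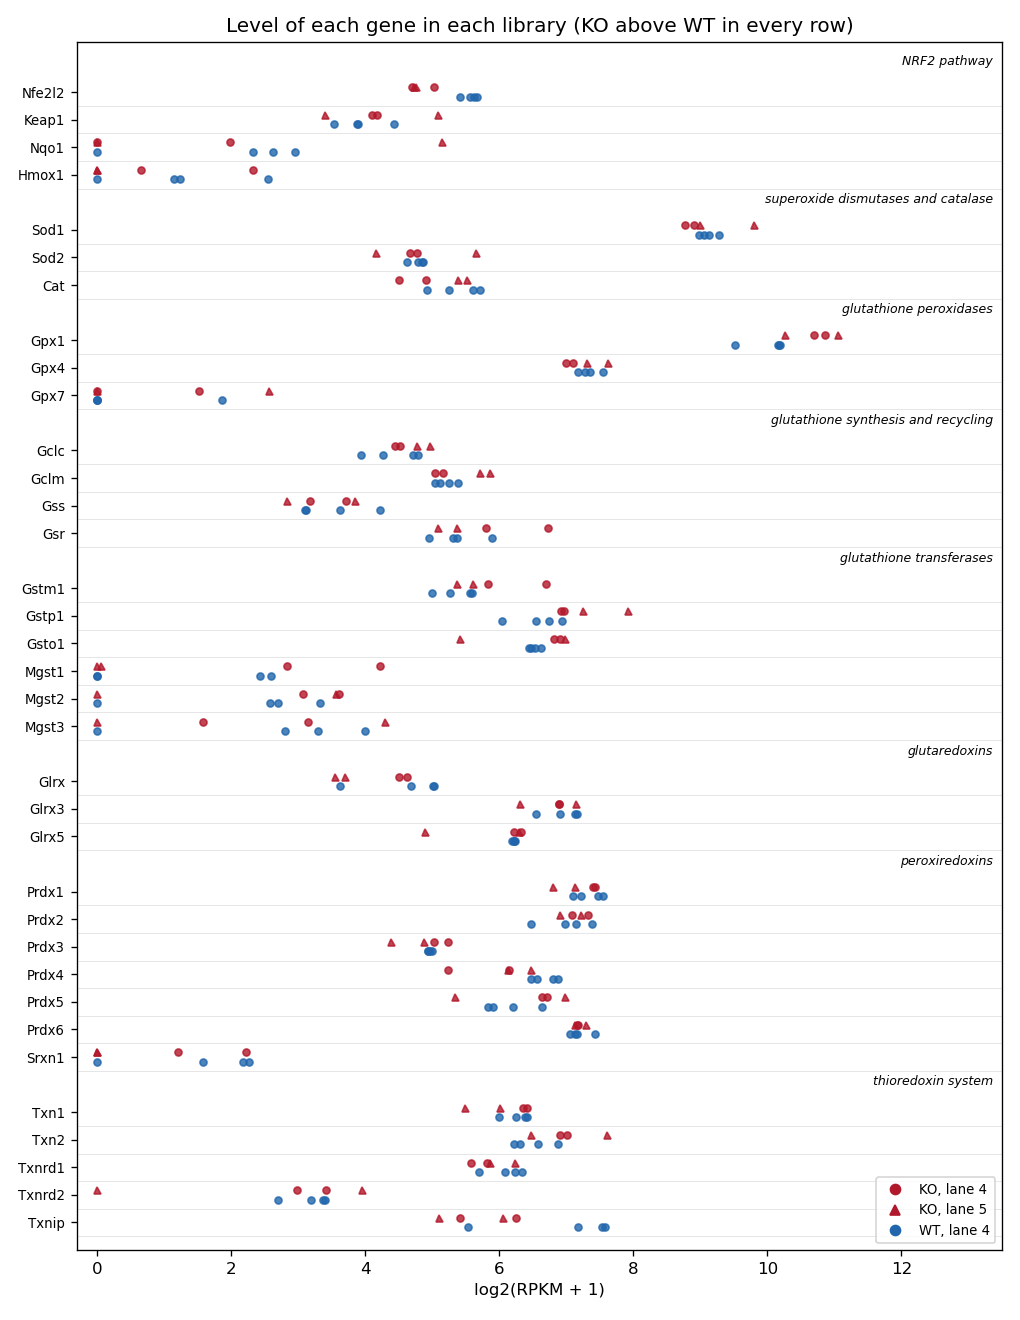
Level of the 35 genes in each library on the log2(RPKM + 1) scale, grouped by role; in each row the 4 KO libraries (red) lie above the 4 WT libraries (blue), and triangles mark lane 5. Gpx1 is the most abundant gene in every library and Nfe2l2 is the gene whose KO libraries all lie left of the WT libraries, while points at 0 are genes listed at 0.

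Nfe2l2 (Entrez 18024), which encodes NRF2, was lower in every KO library than in any WT library. Its level was 25.0, 31.7, 25.6 and 26.2 RPKM in KO1 to KO4, against 49.6, 48.4, 41.7 and 46.5 RPKM in WT1 to WT4. The highest KO value, in KO2, lay well below the lowest WT value, in WT3, and both lanes of KO were alike. The means were 27.1 ± 3.11 RPKM in KO and 46.6 ± 3.50 RPKM in WT (SD, n = 4), a log2 difference of -0.76 ± 0.18 (SE). The limma adjusted p was 0.441, which misses the threshold, although Nfe2l2 ranked 44 of 11276 genes by p. A 2-sided exact permutation test gave p = 0.0286, which is the floor for the 70 ways of dividing 8 libraries evenly. Any gene without overlap between the groups reaches that floor, so this p only repeats the separation given above. In the lane 4 libraries the difference was -0.70, and leaving out each library in turn gave -0.84 to -0.73. In bulk RNA, fewer cells of a type and less RNA per cell cannot be told apart, here and for every gene below.

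Keap1 (Entrez 50868), encodes the adaptor that sends NRF2 for degradation. It was at 16.1, 17.1, 33.0 and 9.56 RPKM in KO and 13.8, 20.7, 10.6 and 13.8 RPKM in WT (log2 difference 0.25 ± 0.37, adjusted p = 0.855 in limma). KO3 was the highest library and KO4 the lowest, so the KO range enclosed the WT range. The ratio of Nfe2l2 to Keap1 within a library, which no scaling of libraries can change, was 1.55, 1.86, 0.773 and 2.74 in KO1 to KO4 and 3.61, 2.34, 3.93 and 3.36 in WT1 to WT4. KO4 lay above WT2, and the groups otherwise did not overlap (2-sided exact permutation p = 0.0571; 0.0952 when adjusted over the 5 ratios given here, which were chosen after the values had been seen).

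The classical NRF2 targets Nqo1, a quinone reductase, and Hmox1, the inducible heme oxygenase, were low in these cells. Nqo1 (Entrez 18104) was at 0, 2.95, 34.5 and 0 RPKM in KO and 5.16, 0, 4.04 and 6.77 in WT, so that the single KO3 library held the highest value while KO1 and KO4 were listed at 0. Hmox1 (Entrez 15368) was at 0.579, 4.0004, 0 and 0 RPKM in KO and 1.36, 0, 1.22 and 4.89 in WT, and was listed at 0 in KO3, KO4 and WT2, the libraries that list most genes at 0. Neither gene can be given a direction from these values (log2 differences -0.20 ± 1.15 and -0.49 ± 0.70, adjusted p = 0.969 and 0.850 in limma). In the lane 4 libraries they were -0.99 and 0.25.

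The letters of the element that NRF2 binds were looked for in promoters, from 250 bases before to 50 after the start in RefSeq's annotation (build GRCm38.p6, not the mm9 of the submitters' processing notes). Promoters were matched for 31 of the 35 members, as 39 promoters; Prdx6, Gclc, Gsr and Hmox1 had none in the table. The antioxidant response element core TGACNNNGC, on either strand, was held by 7 of the 31 members (22.6%), against 14.0% of all 27025 genes with a promoter in the table. The 7 were Nfe2l2 itself, Prdx1, Srxn1, Txnrd1, Gclm, Mgst1 and Sod1. Their matches are shown with 10 bases on each side, 5′ to 3′ on the gene's strand, with the match in capitals; where the capitals begin with GC the element lies on the opposite strand.
Nfe2l2 (chr2:75704885-75704913, minus strand): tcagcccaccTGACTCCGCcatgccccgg
Prdx1 (chr4:116685456-116685484, plus strand): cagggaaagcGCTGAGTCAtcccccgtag
Srxn1 (chr2:152105542-152105570, plus strand): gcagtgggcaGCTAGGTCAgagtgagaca
Txnrd1 (chr10:82859104-82859132, plus strand): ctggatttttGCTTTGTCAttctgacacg
Gclm (chr3:122245413-122245441, plus strand): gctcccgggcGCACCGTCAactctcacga
Mgst1 (chr6:138140461-138140489, plus strand): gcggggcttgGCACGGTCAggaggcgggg
Sod1 (chr16:90220696-90220724, plus strand): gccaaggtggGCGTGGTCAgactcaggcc
The log2 differences of these 7 genes, in the same order, were -0.76, -0.15, -0.65, -0.22, 0.24, 0.52 and 0.01, so members with a match had differences on both sides of 0. A match is a string of letters and was not tested as a binding site.

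The promoters of Nfe2l2 and Gpx1 are shown over the 250 bases before the start, since these are the members whose groups did not overlap. In Nfe2l2 the capitals mark the antioxidant response element core, which begins 240 bases before the start. In Gpx1 they mark a κB motif, the element bound by NF-κB, on the opposite strand and beginning 55 bases before the start. κB motifs were searched on both strands and were found in 4 of the 31 members (12.9%: Gpx1, Prdx1, Sod2 and Cat), against 9.55% of all genes in the table. No κB motif was found in the Nfe2l2 window. The E-box, a 6-letter motif, was searched as well and was found in 1 of the 31 members (3.23%: Prdx4), against 8.09% of all genes in the table.
Nfe2l2 (chr2:75704664-75704913, minus strand): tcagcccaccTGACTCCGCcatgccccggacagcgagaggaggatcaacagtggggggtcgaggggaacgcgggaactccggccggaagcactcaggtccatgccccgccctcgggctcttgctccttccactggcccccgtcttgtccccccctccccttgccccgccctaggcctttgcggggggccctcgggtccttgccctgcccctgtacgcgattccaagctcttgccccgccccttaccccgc
Gpx1 (chr9:108338830-108339079, plus strand): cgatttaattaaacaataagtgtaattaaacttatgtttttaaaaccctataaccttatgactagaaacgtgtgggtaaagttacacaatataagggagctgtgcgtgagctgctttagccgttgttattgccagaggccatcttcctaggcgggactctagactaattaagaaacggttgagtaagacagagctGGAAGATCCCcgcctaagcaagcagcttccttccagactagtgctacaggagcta

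**Figure D2:**
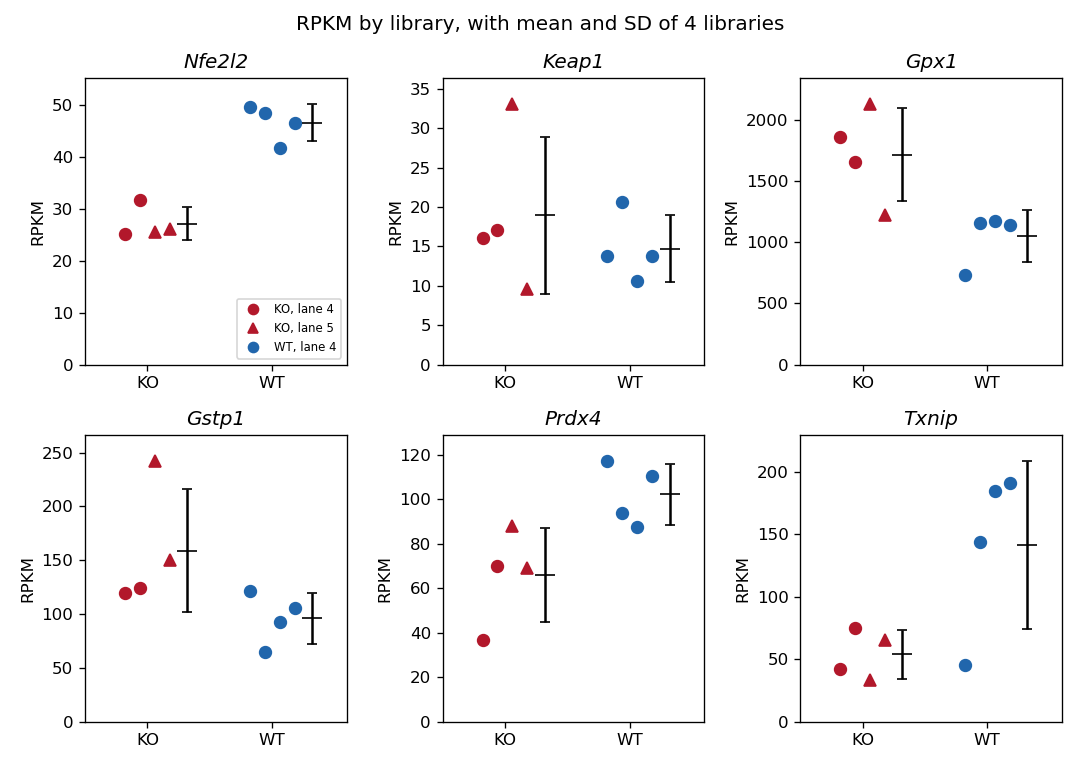
RPKM of Nfe2l2, Keap1, Gpx1, Gstp1, Prdx4 and Txnip in each library, KO left and WT right, with triangles for lane 5 and the mean and SD of 4 libraries beside the points. Nfe2l2 is at 25.0 to 31.7 RPKM in KO and 41.7 to 49.6 in WT, Gpx1 is higher in every KO library, and the groups of the other 4 genes overlap.

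Among the superoxide dismutases and catalase, no group difference stood out from the spread. Sod1 (Entrez 20655), the cytosolic copper-zinc enzyme, was the second most abundant member in every library, at 436, 480.2, 891 and 509 RPKM in KO and 618, 529, 503 and 559.9 RPKM in WT. KO3 was the highest of the 8 libraries, and the other 3 KO libraries lay below or within the WT range, with KO1 and KO2 below all WT libraries (log2 difference 0.01 ± 0.22, and -0.27 in the lane 4 libraries). Sod2 (Entrez 20656), the mitochondrial manganese enzyme and a textbook NF-κB target, was at 26.5, 24.5, 16.8 and 49.5 RPKM in KO and 26.5, 27.7, 28.0 and 23.7 in WT. WT held within 23.7 to 28.0 RPKM, and the lane 5 libraries KO3 and KO4 marked both ends of the KO range (log2 difference 0.04 ± 0.30, adjusted p = 0.976 in limma). Cat (Entrez 12359), catalase, was at 21.7, 29.0, 41.0 and 45.0 RPKM in KO and 51.7, 47.8, 37.3 and 29.4 in WT (log2 difference -0.30 ± 0.28). Its lowest values were in KO1 and KO2, the lane 4 difference was -0.67, and without KO1 it was -0.11.

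Gpx1 (Entrez 14775), the main cytosolic glutathione peroxidase, was the most abundant of the 35 genes in every library and was higher in KO. Its values were 1859.6, 1658, 2126 and 1223.5 RPKM in KO1 to KO4, against 734, 1155, 1170.1 and 1144 RPKM in WT1 to WT4. Every KO library lay above every WT library, although KO4 exceeded WT3 by little and WT1 lay far below the other WT libraries. The means were 1717 ± 381 RPKM in KO and 1051 ± 212 RPKM in WT (SD, n = 4), a log2 difference of 0.70 ± 0.21 (SE; limma adjusted p = 0.515, 2-sided exact permutation p = 0.0286). In the lane 4 libraries the difference was 0.77, and without WT1 it was 0.54. When limma weighted each library by how closely it followed its group, Gpx1 alone of the members passed (0.69, adjusted p = 0.0420), with 164 of all 11276 genes (1.45%). These weights gave KO2 6.50 and KO3 0.137, so the KO side of that fit rests largely on KO2, and Nfe2l2 missed the threshold in it (-0.58, adjusted p = 0.0680).

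Gpx1 took up 44.0%, 41.1%, 43.5% and 33.9% of the summed RPKM of the 35 genes in KO1 to KO4, and 22.2%, 33.9%, 33.7% and 29.9% in WT1 to WT4. Relative to Sod1, whose product, hydrogen peroxide, is the substrate of Gpx1, Gpx1 was at 4.27, 3.45, 2.39 and 2.40 in KO and 1.19, 2.18, 2.33 and 2.04 in WT. The groups did not overlap, but KO3 and KO4 lay just above WT3 (2-sided exact permutation p = 0.0286, adjusted over the 5 ratios 0.0952). Relative to Gpx4 it was at 13.6, 13.0, 10.8 and 7.74 in KO and 3.92, 7.44, 8.12 and 7.04 in WT (exact permutation p = 0.0571, adjusted 0.0952), and KO4 lay below WT3. Gpx4 (Entrez 625249), which reduces lipid peroxides in membranes and guards against ferroptosis, had no difference of that size. It was at 137, 127, 197 and 158 RPKM in KO and 187, 155, 144 and 163 in WT (log2 difference -0.08 ± 0.18, and -0.29 in the lane 4 libraries), with KO3 highest and KO1 and KO2 lowest of all 8 libraries. Gpx7 (Entrez 67305), an endoplasmic reticulum peroxidase, was at 1.89 RPKM in KO2, 4.94 in KO4 and 2.66 in WT1 and listed at 0 in the other 5 libraries.

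Markers of granulocyte-monocyte progenitors, the committed myeloid cells downstream of LSK cells, were higher in sum in KO, as Gpx1 was. The summed level of 12 such markers was 8234, 3949, 3121 and 2289 RPKM in KO1 to KO4 and 789, 1559, 1876 and 2051 RPKM in WT1 to WT4, with no overlap. None of the 12 was at 0 in all libraries, and 5 of them (Mpo, Ctsg, Cebpa, Csf1r and Irf8) were higher in every KO library than in any WT library, where 2.05% of all genes were. The others overlapped, and Ly6c2, Fcgr3 and Cebpe were listed at 0 in KO4. Of the 12, 11 had differences above 0 and 1, Lyz2, lay below (-0.04). Mpo was the largest part of the sum, at 3687, 2167, 1500 and 1367 RPKM in KO and 337, 779, 938 and 972 in WT. WT1 was the lowest library both for the marker sum and for Gpx1, whereas KO1 was the highest for the markers and KO3 for Gpx1. The summed level of 10 stem cell markers was 261 to 422 RPKM in KO and 379 to 473 RPKM in WT, and most of it came from Cd34, at 232 ± 44.4 RPKM in KO and 259 ± 26.1 in WT, and from Kit. All 10 had differences below 0, as had 61% of all genes, and their median was -0.72. Of the 10, 3 were lower at an unadjusted p under 0.05 in limma, where 4.74% of all genes were, and none passed the adjusted test. Mecom, a regulator of stem cell maintenance named after its values had been seen, was the 1 stem cell marker without overlap, at 1.80, 3.36, 0 and 2.54 RPKM in KO and 10.3, 4.99, 8.96 and 8.62 in WT. The summed level of 16 megakaryocyte-erythroid markers was 239 to 678 RPKM in KO and 627 to 800.4 in WT, with Slc4a1 at 0 throughout. Car2, a carbonic anhydrase, was the most abundant of them on average and did not overlap, at 61.2, 212, 297 and 267 RPKM in KO and 490.5, 386, 413 and 322 in WT, while of the 13 tested 5 had differences above 0 and 8 below. The part of the cell mix in the differences of Gpx1, Nfe2l2 or any other member was not tested. Of 7 mature myeloid markers 3 averaged under 1 RPKM, and the sum of the 7 was 12.2 to 41.9 RPKM in KO and 2.02 to 12.8 in WT. Of the 2 tested, Itgam, named after its values had been seen, was higher in every KO library than in any WT library, where 2.05% of all genes were. It was at 5.915, 6.65, 22.8 and 5.98 RPKM in KO and 1.15, 2.515, 0.707 and 2.76 in WT (limma adjusted p = 0.515). Stromal and endothelial markers summed to 8.77 to 27.3 RPKM in KO and 11.9 to 21.7 in WT over 8 genes, with Col1a1 and Col3a1 at 0 throughout.

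**Figure D3:**
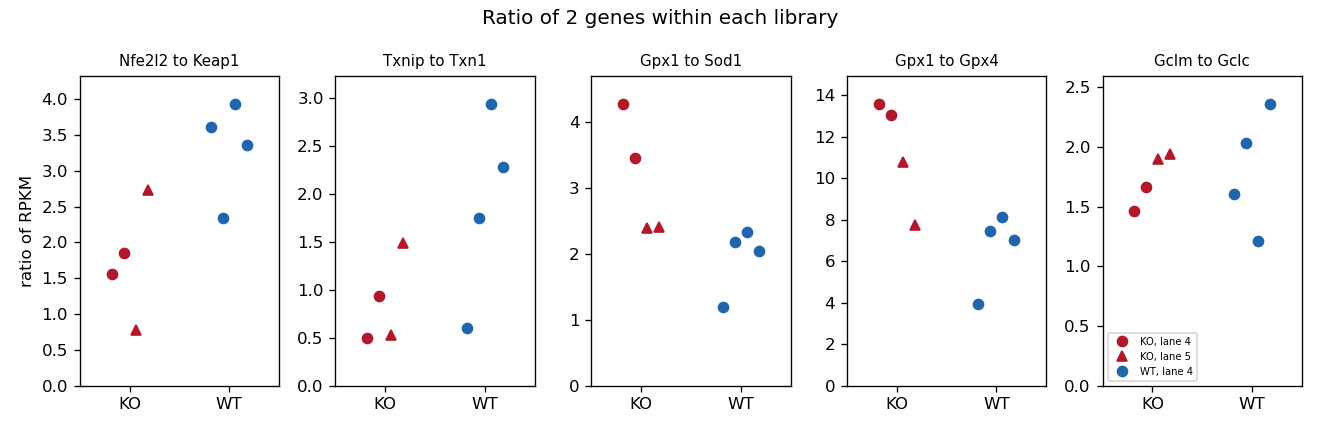
Ratio of the RPKM of 2 genes within each library, KO left and WT right, on linear axes that start at 0, with triangles for lane 5. The Gpx1 to Sod1 ratio is at 2.39 to 4.27 in KO and 1.19 to 2.33 in WT, whereas the Gclm to Gclc ratio overlaps fully.

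Glutathione is made in 2 steps, by glutamate-cysteine ligase (the catalytic subunit Gclc and the modifier Gclm) and glutathione synthetase (Gss), and its oxidized form is recycled by glutathione reductase (Gsr). Of these 4 genes, 3 had differences above 0 and none passed the test; their median was 0.25, beside -0.14 for all genes. Gclc (Entrez 14629) was at 21.9, 20.8, 30.4 and 26.5 RPKM in KO and 25.3, 18.3, 26.6 and 14.4 in WT, and Gclm (Entrez 14630) at 32.1, 34.7, 57.5 and 51.4 in KO and 40.7, 37.2, 32.1 and 33.9 in WT. The lane 5 libraries were the highest KO libraries for both subunits, and in the lane 4 libraries the differences shrank to 0.05 for Gclc and -0.10 for Gclm, next to 0.25 and 0.24 over all libraries. The ratio of the modifier to the catalytic subunit was 1.74 ± 0.221 in KO and 1.80 ± 0.502 in WT (SD, n = 4; exact permutation p = 0.914). Gss (Entrez 14854) was at 12.2, 8.08, 13.4 and 6.15 RPKM in KO and 17.8, 7.56, 7.65 and 11.3 in WT (log2 difference -0.12 ± 0.39). Gsr (Entrez 14782) was at 106, 55.0, 33.1 and 40.5 RPKM in KO and 30.0, 40.5, 38.6 and 58.7 in WT. KO1 stood far above all others, and the other KO libraries lay within the WT range (log2 difference 0.37 ± 0.35, 0.89 in the lane 4 libraries and 0.04 without KO1).

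Glutathione transferases attach glutathione to reactive compounds, and 5 of the 6 members had differences above 0 (4 with quantile normalization, where Gsto1 was at -0.05), with a median of 0.47. None passed the test. Gstp1 (Entrez 14870), the pi-class enzyme, was at 119.8, 124, 242 and 151 RPKM in KO and 121, 64.8, 92.7 and 106 in WT. KO1 lay just below WT1, and otherwise every KO library exceeded every WT library (log2 difference 0.70 ± 0.27, limma adjusted p = 0.634, exact permutation p = 0.0571). KO3 held by far the highest value, and the lane 4 difference was 0.37. Gstp1 may share reads with its near-identical neighbour Gstp2, at 92.5, 97.6, 204 and 134 RPKM in KO and 112, 52.9, 81.2 and 81.9 in WT, so the split between them is uncertain. Summed, the pair was at 212, 222, 446 and 285 RPKM in KO and 234, 118, 174 and 188 in WT, where WT1 lay above KO1 and KO2.

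Gstm1 (Entrez 14862), a mu-class transferase with close relatives in the same cluster, was at 103, 56.3, 40.6 and 48.0 RPKM in KO and 37.4, 31.1, 47.4 and 46.2 in WT. KO1 stood highest and KO3 fell among the WT libraries (log2 difference 0.53 ± 0.30, 0.92 in the lane 4 libraries and 0.26 without KO1). Gsto1 (Entrez 14873), of the omega class, was at 119, 112, 41.5 and 125 RPKM in KO and 86.2, 97.5, 87.9 and 91.4 in WT: 3 KO libraries lay above all WT libraries and KO3 lay below all of them. Its difference was therefore 0.01 ± 0.32 over all libraries, and 0.38 without KO3 (limma adjusted p = 0.495). The microsomal members, which act in membranes, were low and often listed at 0. Mgst1 (Entrez 56615) was at 17.7, 6.16, 0.0470 and 0 RPKM in KO and 0, 0, 5.08 and 4.43 in WT, Mgst2 (Entrez 211666) at 11.2, 7.44, 0 and 10.9 in KO and 4.98, 0, 9.05 and 5.52 in WT, and Mgst3 (Entrez 66447) at 7.90, 1.99, 0 and 18.6 in KO and 15.0, 0, 8.79 and 6.00 in WT. For Mgst1 the highest library was KO1, and KO3 and KO4 were at or near 0 with WT1 and WT2. The log2 differences were 0.52, 0.41 and -0.27 over all libraries and 2.27, 1.19 and -0.16 in the lane 4 libraries. The pooled standard errors lay between 0.96 and 1.07, so changes of that size could not be told from the spread.

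Glutaredoxins use glutathione to reduce mixed disulfides, and Glrx3 and Glrx5 also serve iron-sulfur protein assembly. All 3 had differences below 0, as had 61% of all genes, and none passed the test. Glrx (Entrez 93692), the cytosolic enzyme, was at 21.8, 23.6, 10.7 and 11.95 RPKM in KO and 24.8, 31.7, 11.3 and 31.3 in WT; the lane 5 libraries and WT3 were low, and the lane 4 difference was -0.02, against -0.49 over all libraries. Glrx3 (Entrez 30926) was at 118, 118, 140.2 and 78.3 RPKM in KO and 142, 119, 92.5 and 139 in WT (log2 difference -0.13 ± 0.22). Glrx5 (Entrez 73046), the mitochondrial form, was at 73.7, 79.2, 28.6 and 77.8 RPKM in KO and 73.5, 72.0, 74.0 and 74.4 RPKM in WT. KO3 alone departed, and the other 7 libraries lay within 72.0 and 79.2 RPKM.

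Peroxiredoxins reduce hydrogen peroxide through a reactive cysteine, and sulfiredoxin (Srxn1) repairs them when that cysteine is over-oxidized. Of these 7 genes none passed the test, and Prdx4 had the lowest difference. Prdx4 (Entrez 53381), the peroxiredoxin of the endoplasmic reticulum, was at 36.8, 70.1, 87.8 and 69.0 RPKM in KO and 117, 93.9, 87.6 and 111 RPKM in WT. KO3 lay just above WT3, and the other KO libraries lay below all WT libraries, with KO1 the lowest. The means were 65.9 ± 21.2 RPKM in KO and 102 ± 13.8 in WT (SD, n = 4), a log2 difference of -0.68 ± 0.26 (SE; limma adjusted p = 0.634, 2-sided exact permutation p = 0.0571). In the lane 4 libraries the difference was -0.98, and without KO1 it was -0.43.

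The cytosolic Prdx1, Prdx2 and Prdx6 and the mitochondrial Prdx3 differed little between groups. Prdx1 (Entrez 18477) was at 167, 172, 111 and 139.6 RPKM in KO and 176, 136, 149 and 186 in WT, and Prdx2 (Entrez 21672), abundant in red cells, at 135, 159.5, 119.6 and 148 in KO and 140.3, 88.3, 125 and 167 in WT. Prdx6 (Entrez 11758), which uses glutathione, was at 144, 143, 156 and 139 RPKM in KO and 171, 131, 142 and 139 in WT, and its log2 difference of 0.00 ± 0.15 had the smallest SE of the 34 genes. Prdx3 (Entrez 11757) was at 36.9, 31.7, 20.0 and 28.5 RPKM in KO and 31.1, 29.7, 30.2 and 29.7 in WT, with KO3 the lowest and KO1 the highest library. The log2 differences of Prdx1, Prdx2 and Prdx3 were -0.15 ± 0.19, 0.14 ± 0.21 and -0.08 ± 0.23 (SE). Prdx5 (Entrez 54683), found in mitochondria, peroxisomes and cytosol, was at 104, 98.9, 39.6 and 126 RPKM in KO and 72.9, 56.3, 59.4 and 98.3 in WT. KO1, KO2 and KO4 lay above all WT libraries and KO3 below all of them, a log2 difference of 0.27 ± 0.35, and 0.63 without KO3 (limma adjusted p = 0.462). Prdx5 overlaps Trmt112, so that reads without strand may be shared. Srxn1 (Entrez 76650) was at 1.32, 3.67, 0 and 0 RPKM in KO and 3.81, 0, 1.98 and 3.52 in WT, listed at 0 in the same 3 libraries as Hmox1.

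Among the members of the thioredoxin system Txnip stood furthest from 0 in log2 difference over all libraries, and its product binds and inhibits thioredoxin and restrains glucose uptake. Txnip (Entrez 56338) was at 41.9, 75.3, 33.5 and 65.7 RPKM in KO and 45.3, 144, 185 and 191 RPKM in WT. WT2, WT3 and WT4 lay above all KO libraries, whereas WT1 lay among them, between KO1 and KO4. The means were 54.1 ± 19.6 RPKM in KO and 141 ± 67.3 in WT (SD, n = 4), a log2 difference of -1.25 ± 0.46 (SE; limma adjusted p = 0.627, 2-sided exact permutation p = 0.0857). In the lane 4 libraries it was -1.12, and without WT1, where the groups no longer overlap, -1.72 (limma adjusted p = 0.874). The ratio of Txnip to Txn1 was 0.498, 0.930, 0.526 and 1.49 in KO and 0.604, 1.74, 2.93 and 2.28 in WT (exact permutation p = 0.143, adjusted 0.179). The transcript Gm15441 overlaps Txnip and was at 12.1, 20.1, 0 and 14.5 RPKM in KO and 10.5, 31.7, 32.6 and 39.5 in WT, and without strand their reads cannot be told apart.

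For thioredoxin and its reductases the KO and WT libraries overlapped. Txn1 (Entrez 22166), cytosolic thioredoxin, was at 84.0, 81.0, 63.6 and 44.2 RPKM in KO and 74.9, 82.6, 63.0 and 83.9 in WT, with KO4 lowest (log2 difference -0.19 ± 0.23). Txn2 (Entrez 56551), the mitochondrial form, was at 128, 119, 193 and 88.0 RPKM in KO and 78.6, 73.5, 94.4 and 116 in WT; KO1, KO2 and KO3 lay above all WT libraries and KO4 among them (log2 difference 0.50 ± 0.25, limma adjusted p = 0.675, and 0.46 in the lane 4 libraries). Txnrd1 (Entrez 50493), the cytosolic selenoprotein reductase, was at 55.2, 46.8, 57.0 and 74.2 RPKM in KO and 80.4, 66.8, 51.1 and 74.0 in WT (log2 difference -0.22 ± 0.21, and -0.39 in the lane 4 libraries). Txnrd2 (Entrez 26462), its mitochondrial counterpart, was at 6.95, 9.70, 0 and 14.5 RPKM in KO and 9.57, 5.50, 9.36 and 8.13 in WT. Its difference of -0.58 ± 0.78 rested on KO3, where it is listed at 0, and without KO3 it was 0.29.

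**Figure D4:**
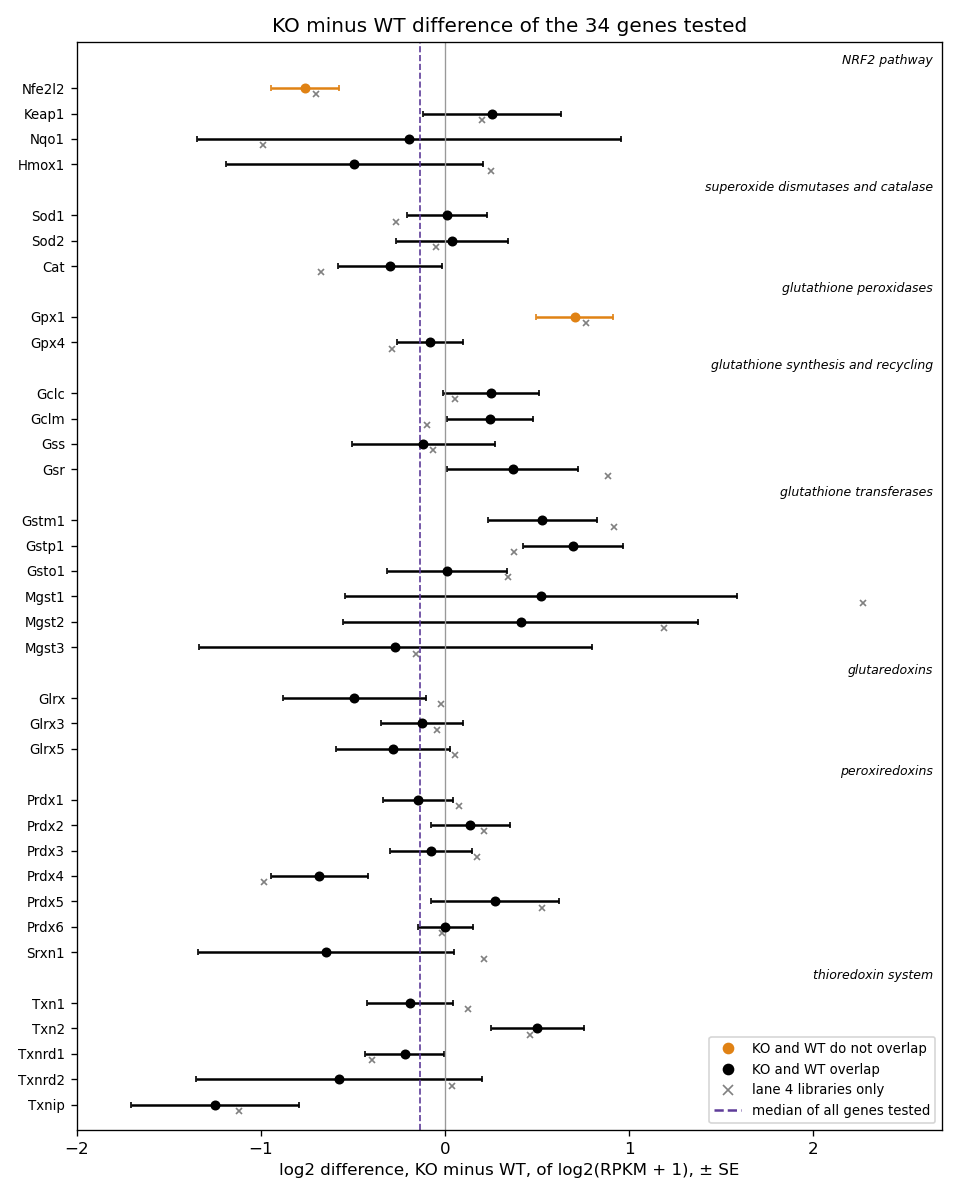
Log2 difference, KO minus WT, of each of the 34 genes tested, with SE, grouped by role; orange marks genes whose KO and WT libraries do not overlap, crosses give the difference in the lane 4 libraries and the dashed line the median of all genes tested. Nfe2l2 and Gpx1 are the 2 orange genes, Txnip is at -1.25 over all libraries, and the widest error bars belong to genes listed at 0 in some libraries.

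The wider machinery was read from 5 further lists of 80 genes, of which 67 were tested and 0 passed an adjusted p of 0.05 in limma. At an unadjusted p under 0.05, 5 were higher in KO, where 2.77% of all genes were, and 4 lower, where 4.74% were. The groups did not overlap in 8 of 67, with 3 higher and 5 lower, where 5.92% of all genes did not. The median log2 difference was -0.06, beside -0.14 for all genes. Among 12 NRF2 cofactors and regulators the median was -0.05. The 2 of highest level were Cul3, the ubiquitin ligase scaffold that KEAP1 serves, at 71.5 ± 7.41 RPKM in KO and 74.6 ± 5.76 in WT, and Nfe2, the erythroid relative of NRF2, at 54.3 ± 8.34 in KO and 44.2 ± 12.5 in WT (SD, n = 4). Btrc, a ubiquitin ligase subunit that can also mark NRF2, was the 1 gene of this list without overlap and was named after its values had been seen, at 2.86, 4.34, 0 and 4.67 RPKM in KO and 5.40, 5.21, 4.85 and 5.62 in WT. At an unadjusted p under 0.05 in limma, 1 gene of this list was lower, where 4.74% of all genes were, and 0 were higher. That gene, Maff, overlapped and was also named after its values had been seen. It was at 2.23, 2.19, 0 and 0 RPKM in KO and 13.6, 6.69, 0.988 and 5.22 in WT (log2 difference -1.77 ± 0.72, limma adjusted p = 0.637). Of 18 other NRF2-linked enzymes and transporters 15 were tested, with a median of -0.003. Of these, 2 were higher in KO at an unadjusted p under 0.05 in limma, where 2.77% of all genes were, and 0 were lower. They were G6pdx (log2 difference 0.81 ± 0.28, limma adjusted p = 0.626) and Pgd (0.77 ± 0.29, limma adjusted p = 0.634), both with overlap and named after their values had been seen. The ferritin genes Ftl1 and Fth1, which store iron, were the most abundant: Ftl1 was at 1292 ± 108 RPKM in KO and 1169 ± 94.6 in WT, and Fth1 at 442 ± 74.6 in KO and 474 ± 66.4 in WT.

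The other thioredoxin-fold and repair genes gave 5 of the 8 genes without overlap, where 5.92% of all genes did not overlap. The 18 genes tested had a median of -0.40. Park7, the oxidation-sensitive chaperone DJ-1, was the most abundant, at 140.1 ± 34.7 RPKM in KO and 119 ± 27.8 in WT. Txnl4a, a spliceosome protein with a thioredoxin fold, was at 64.6, 62.2, 79.9 and 74.4 RPKM in KO and 56.1, 50.2, 52.5 and 61.7 in WT (log2 difference 0.34 ± 0.17, adjusted p = 0.671 in limma). The others without overlap, named after their values had been seen, were Txndc5, an oxidoreductase of the endoplasmic reticulum and higher in KO, and the lower Sesn1, a stress-induced sestrin, Msrb3, a methionine sulfoxide reductase, and Arrdc4, an alpha-arrestin like Txnip. Arrdc4 was at 3.54, 1.81, 0 and 1.55 RPKM in KO and 3.97, 12.9, 4.33 and 7.46 in WT (log2 difference -1.65 ± 0.60), and Sesn1 at 19.3, 24.3, 30.9 and 31.8 RPKM in KO and 40.6, 35.01, 44.0 and 51.8 in WT (log2 difference -0.68 ± 0.23); the adjusted p of all 5 in limma was at least 0.606.

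On the side that makes superoxide, the NADPH oxidase list gave Rac1, a small GTPase without overlap between groups, at 114 ± 13.4 RPKM in KO and 134 ± 2.82 in WT, and Rac2, its blood-cell form that activates the oxidase, at 110.5 ± 29.0 in KO and 97.3 ± 19.8 in WT (SD, n = 4). Cybb, the catalytic subunit of the phagocyte oxidase, did not overlap between groups and was named after its values had been seen. It was at 12.8, 2.84, 9.80 and 2.60 RPKM in KO and 1.44, 2.23, 0.478 and 0.330 in WT (log2 difference 1.76 ± 0.61, adjusted p = 0.626 in limma). The part of the cell mix in the difference of Cybb was not tested. Of 22 other glutathione enzymes only 13 were tested, and the most abundant, the glyoxalase Glo1, was at 58.1 ± 28.4 RPKM in KO and 43.0 ± 7.10 in WT, followed by Gstcd at 21.4 ± 9.39 in KO and 17.1 ± 4.27 in WT. The median of the 13 was -0.11, with 5 differences above 0 and 8 below, where 61% of all genes lay below 0. At an unadjusted p under 0.05 in limma, 1 was lower, where 4.74% of all genes were, and 0 were higher. That gene, Gstt2, was named after its values had been seen and was listed at 0 in KO3 and KO4 (log2 difference -2.09 ± 0.84, limma adjusted p = 0.634).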

How the data were processed

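Poly(A) RNA was sequenced from 100 ng of total RNA per library, and the libraries were grouped by the labels' genotype. The deposited values are RPKM made by the authors, 1 per Entrez gene and library; the unit was inferred, since RPKM times transcript length summed to 1.14 to 1.17 M in each library. TopHat, edgeR and mm9 stand in the submitters' processing notes without version or role; the counting tool is not given in the sources used here. Symbols were found for 24029 of 24112 IDs (99.7%).

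The genes tested reached 1 RPKM in 4 or more libraries. They were compared as log2(RPKM + 1) with limma 3.58.1 in R 4.3.3 (trend, robust), Benjamini-Hochberg adjusted over all genes, threshold 0.05. Each difference is KO minus WT on the log2 scale, which understates changes of low genes. Depth is only approximate, because 44.0% to 57.4% of low values were whole reads within 0.03 reads, so no count test was run.

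The 35 members were all named. Of the redox lists the 2 genes of highest mean were, where none passed, and some others after their values had been seen. Of the marker lists, those of the sort, the 2 lymphoid genes of highest mean, genes without overlap, genes at 0 and some that overlapped were named, most after their values had been seen. Members and lists were chosen with earlier results of these data known. Replicate numbers did not pair libraries (correlations of same-numbered deviations -0.08 to -0.04). Alternatives covered scaling, filters, pseudocount, lane, library weights and left-out libraries.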

Additional observations from a re-analysis of the deposited data

Results flagged for a closer look

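A library was taken as far from its group where its gap to the nearest other library exceeded Dixon's 95% limit for 4 samples. Of 80 groups checked, 8 were marked, next to about 4 by chance at 1 in 20.

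In KO, KO3 was the marked library for Glrx5 (28.6 RPKM, against 73.7 to 79.2 in the other KO libraries), Gsto1 (41.5, against 112.0 to 125.4), Sod1 (891, against 436 to 509) and Nqo1 (34.5, against 0 to 2.95). KO2 was marked for Nfe2l2 (31.7 RPKM, against 25.0 to 26.2), where it still lay below every WT library, and for Hmox1 (4.0004, against 0 to 0.579). In WT, WT1 was marked for Gpx1 (733.6 RPKM, against 1144 to 1170.1) and for Gpx7 (2.66, where the other WT libraries are listed at 0). The part of lane 5 in the KO3 values was not tested, since both lane 5 libraries are KO.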

How the results depend on the processing

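Of 608 values of single genes under 18 alternatives, 79 changed sign, and 12 of 34 genes never did, Nfe2l2, Gpx1, Txnip, Prdx4 and Gstp1 among them. The genes passing the adjusted p numbered 2 in the lane 4 libraries, 164 with library weights, 3 without WT2, KO3 and KO4, and 0 to 2 with each library left out in turn; members passing numbered 1 with library weights (Gpx1) and 0 with each library left out. Members without overlap, 2 over all libraries, numbered 12 in the lane 4 libraries (24.2% of all genes), 14 without WT2, KO3 and KO4 (34.2%) and 2 to 6 with each library left out, 6 without KO3 (11%), 4 without WT1 (8.27%) and 4 without WT3 (8.69%); fewer libraries give less room for overlap. The members' median was 0.055 with lane as a covariate and in the lane 4 libraries, and -0.12 to 0.03 with each library left out. Lane 5 holds KO libraries only, so its part in a KO value cannot be told apart from genotype there.

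The following signs changed; the cause was not tested. With quantile normalization Prdx6 was at -0.078, Gsto1 at -0.050, Sod1 at -0.057 and Hmox1 at 0.046, and with median centring Prdx3 was at 0.029 and Gpx4 at 0.023. With lane as a covariate, which gave the same values as the lane 4 libraries alone, Prdx1 was at 0.076, Prdx3 at 0.17, Prdx6 at -0.015, Srxn1 at 0.21, Txn1 at 0.12, Txnrd2 at 0.038, Gclm at -0.10, Glrx5 at 0.056, Sod1 at -0.27, Sod2 at -0.050 and Hmox1 at 0.25. With library weights Prdx1 was at 0.028, Prdx3 at 0.087, Prdx6 at -0.031, Srxn1 at 0.12, Txn1 at 0.11, Txnrd2 at 0.045, Glrx at 0.12, Glrx5 at 0.058, Sod1 at -0.20, Sod2 at -0.041 and Hmox1 at 0.38. Without WT2, KO3 and KO4, Prdx3 was at 0.17, Prdx6 at -0.061, Txn1 at 0.17, Gclm at -0.082, Glrx at 0.12, Glrx5 at 0.047, Sod1 at -0.29 and Sod2 at -0.029.

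With each library left out in turn, the ranges that crossed 0 were -0.25 to 0.041 for Glrx3, -0.41 to 0.065 for Glrx5, -0.20 to 0.0054 for Gpx4, -0.27 to 0.12 for Gss, -0.14 to 0.38 for Gsto1, -0.044 to 0.52 for Keap1, -0.29 to 1.12 for Mgst1, -0.31 to 1.26 for Mgst2, -1.11 to 0.48 for Mgst3, -1.32 to 0.40 for Nqo1, -0.034 to 0.27 for Prdx2, -0.19 to 0.089 for Prdx3, -0.044 to 0.080 for Prdx6, -0.22 to 0.13 for Sod1, -0.24 to 0.26 for Sod2, -0.30 to 0.00048 for Txn1 and -1.03 to 0.29 for Txnrd2. With the replicate block, although the numbers do not pair the libraries, 0 genes passed, the members' median was -0.08 and no call changed.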
